A study of Solanum lycopersicum with 6 samples.

Results

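The miR396 family in green-stage tomato fruit is described here across fruit of drought-stressed plants and fruit of control plants. The members are all entries of the deposited miRNA table whose name starts with sly-miR396: both arms of miR396a, sly-miR396a-5p and sly-miR396a-3p, and the entry sly-miR396b. These are 3 of the 137 mature miRNAs listed, and all 3 had enough counts to be tested. The species prefix sly- is left out below. Small RNA libraries were made from fruit of Solanum lycopersicum, with 3 libraries of drought fruit and 3 of control fruit. For all samples the labels give 12 h of light, with 25 °C in the light and 20 °C in the dark. From flowering on, drought plants received liquid fertilizer, diluted 500-fold, a single time each week. Control plants received the same fertilizer and plain water on alternating days, so both water and nutrients were reduced in drought plants. The labels name no cultivar. Nor do they say if libraries of the same group stem from different plants, and p-values then reflect the spread among libraries alone, part or all of which may be technical. The table holds no mRNA, so the fruit label has no defining marker to be checked against.

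A plant miRNA is cut by a Dicer-like enzyme out of a folded precursor as a duplex of a 5p and a 3p strand. An Argonaute protein usually keeps 1 strand, the guide, and the other, the passenger, is usually degraded and so is found at lower levels. For miR396 the guide is the 5p strand. It directs cleavage of mRNAs of growth-regulating factors (GRFs), transcription factors that act with GIF coactivators to keep cells of young leaves, flowers and fruits dividing. In tomato, blocking miR396 has been reported to raise GRF mRNAs and to enlarge flowers and fruits. In Arabidopsis the TCP factors that miR319 represses activate miR396 genes, and miR396 levels in leaves are known to respond to drought and other stresses.

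The RefSeq gene table of assembly SLM_r2.1 names 2 miR396 genes, MIR396a and MIR396b, on different chromosomes. MIR396b overlaps the long non-coding RNA gene LOC138337113 there, and MIR396a overlaps no other gene. No coordinates are printed, since the labels and headers name no genome build for the counts. The 3p strand of MIR396b has no entry of its own in the table. The 5p strands of plant miR396 genes are closely related, so reads of miR396a-5p and miR396b could have been traded between these entries, depending on how the authors counted reads that match both. Single values of these entries are therefore uncertain, and sums and ratios are given beside them.

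Counts summed over all listed miRNAs ran from 430732 to 468711 in drought libraries and from 644434 to 749332 in control libraries. Levels below are counts per 1e+06 counts after TMM scaling (scaled CPM), unless a value is said to be a share of the unscaled total. The TMM factors, which correct each library total for its make-up, were 0.848, 1.35 and 0.993 in drought libraries 1 to 3 and from 0.909 to 1.003 in control libraries. Drought libraries 1 and 2 thus stood at opposite ends of the scaling. Control libraries 2 and 3 had the most similar counts of any 2 libraries. Their chi-square per degree of freedom was 50.1, against 315 for the next most similar pair, drought libraries 1 and 3. Whether these control libraries share plants was not tested. In the edgeR test used below 20 miRNAs passed with all 6 libraries, 41 without drought library 2, 9 without control library 2 and 13 without control library 3.

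miR396 was among the most abundant miRNA families of green fruit under both regimes, and its summed level did not pass the test of drought against control. The 3 entries together took 13.2%, 10.7% and 13.0% of all counts in drought libraries 1 to 3, and 9.68%, 14.1% and 13.7% in control libraries 1 to 3. The groups overlapped, and the lowest share of all was that of control library 1. The means were 12.3% ± 1.36 in drought and 12.5% ± 2.45 in control (SD, n = 3 each; two-sided exact permutation test, p = 0.9, where 0.1 is the smallest that 3 against 3 allows). By count the family ranked between the 3rd and the 5th of 68 families in each library. Scaled over families, its level was 120622 ± 38466 CPM in drought and 131915 ± 23144 CPM in control (SD, n = 3 each). The log2 fold change of the sum was -0.13 ± 0.37 (SE; 95% interval -0.86 to 0.60; edgeR's quasi-likelihood F-test, adjusted p = 0.824 by Benjamini-Hochberg), among 52 tested families of which 30.8% passed an adjusted p of 0.05. With the 5p entries alone, miR396a-5p plus miR396b, it was -0.43 ± 0.40 (SE; edgeR adjusted p = 0.459). For miR396 and most other families this fit used more degrees of freedom than the fit of entries, so its share is not comparable with theirs. The number of families that passed also depended on single libraries. It was 16 of 52 with all libraries, 22 of 54 without drought library 2, 6 of 52 without control library 2 and 5 of 52 without control library 3.

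**Figure D1:**
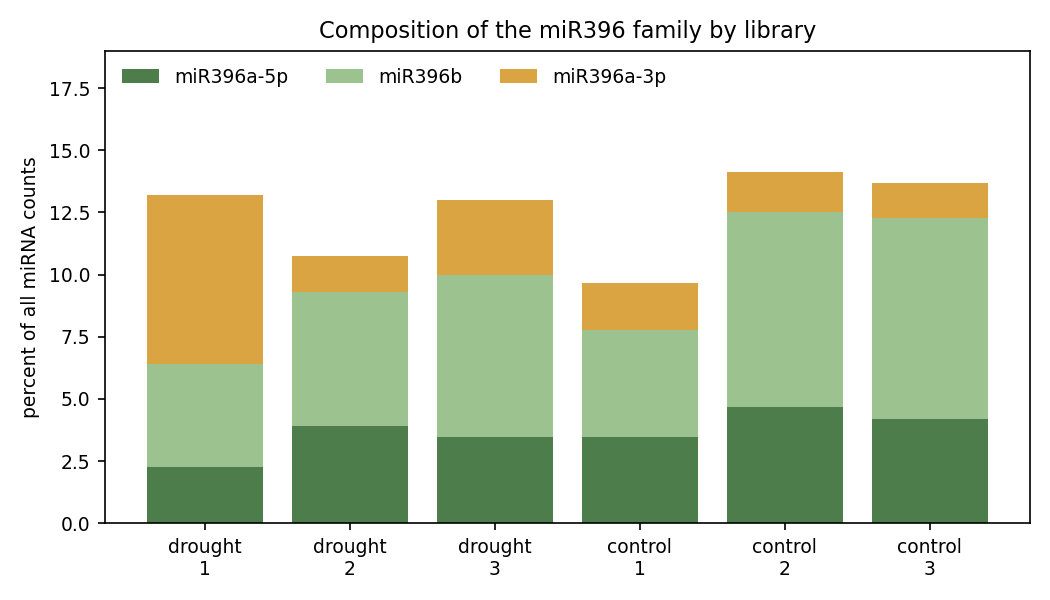
Share of all miRNA counts (percent, y axis) taken by miR396a-5p, miR396b and miR396a-3p in each of the 3 drought and 3 control libraries; each bar is 1 library. The family total stays between 9.68% and 14.1%, while the part taken by miR396a-3p is 6.798% in drought library 1 and 1.41% in control library 3.

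Within the family the entries went in different directions without passing the test. Both 5p entries had negative log2 fold changes and the 3p entry a positive one, but 0 of the 3 came under an adjusted p of 0.05 when edgeR was run on all 99 miRNAs with enough counts. Of those 99, 20.2% passed, 9.09% as rises and 11.1% as falls, and 0 of the 3 members had an unadjusted p under 0.05 in edgeR, as 34.3% of the 99 did. With DESeq2, where 26.3% passed, 0 of the 3 did so as well.

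miR396a-5p, the guide strand of MIR396a, stood at 26651, 29010 and 34869 scaled CPM in drought libraries 1 to 3, against 38293, 46414 and 43396 in control libraries 1 to 3. All 3 drought libraries lay below all 3 control libraries, a separation also seen in 37.4% of the tested miRNAs in one direction or the other. Its means were 30177 ± 4232 CPM in drought and 42701 ± 4105 CPM in control (SD, n = 3 each), and its log2 fold change, -0.50 ± 0.29, did not pass (SE; 95% interval -1.16 to 0.16; edgeR adjusted p = 0.264). The separation rested on the scaling. As shares of the unscaled total, miR396a-5p took 2.26%, 3.92% and 3.46% in drought and 3.48%, 4.66% and 4.18% in control, so that drought library 2 lay above control library 1 (two-sided exact permutation p = 0.2). In the CPM column of the authors' deposited table the groups overlapped too, with 34193 in drought library 3 and 32959 in control library 1. The authors' deposited table lists it with a log2 fold change of -0.47 and an FDR-adjusted p of 0.0556, from a test its header does not name, in which 32 of 129 miRNAs were under 0.05.

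miR396b, the most abundant of the 3 in 5 of the 6 libraries and the fifth most abundant entry over all libraries, stood at 48796, 39652 and 65759 scaled CPM in drought, against 47268, 78549 and 84073 in control. Control library 1 was low, so the groups overlapped. Its means were 51403 ± 13247 CPM in drought and 69964 ± 19848 CPM in control (SD, n = 3 each), and its log2 fold change, -0.44 ± 0.35, did not pass (SE; 95% interval -1.24 to 0.35; edgeR adjusted p = 0.372). The intervals of both 5p entries include no change as well as a fall by more than 1 on the log2 scale.

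The proportion between the 5p entries differed by less than the spread between libraries. miR396a-5p had 0.546, 0.732 and 0.530 counts per count of miR396b in drought libraries 1 to 3, and 0.810, 0.591 and 0.516 in control libraries 1 to 3. The mean log2 ratio was -0.75 ± 0.26 in drought and -0.67 ± 0.33 in control (SD, n = 3 each; difference -0.07, two-sided exact permutation p = 0.7). The sign of this difference turned when drought library 3 (0.01) or control library 1 (0.11) was left out.

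miR396a-3p, the strand that is the passenger in the usual account, varied more than the other members among drought libraries but not among control libraries, where miR396b varied most. It stood at 80179, 10822 and 30282 scaled CPM in drought libraries 1 to 3, against 20914, 15930 and 14673 in control libraries 1 to 3. Drought libraries 1 and 3 lay above all control libraries and drought library 2 lay below them all. As a share of the unscaled total, drought library 2 at 1.46% lay above control library 3 at 1.41%. Its means were 40428 ± 35774 CPM in drought and 17172 ± 3300 CPM in control (SD, n = 3 each), and its log2 fold change, 1.24 ± 0.60, did not pass (SE; 95% interval -0.11 to 2.58; edgeR adjusted p = 0.183). The value depended on single libraries: without drought library 1 it was 0.30 (edgeR adjusted p = 0.652), and without drought library 2 it was 1.55 and passed (edgeR adjusted p = 0.00017). Without drought library 2, 40.6% of 101 tested miRNAs passed, against 20.2% of 99 with all libraries. The adjusted p of miR396a-3p lay between 0.00017 and 0.652 over all 13 alternatives tried. The authors' deposited table gives a log2 fold change of 1.24 and an FDR-adjusted p of 0.157.

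**Figure D2:**
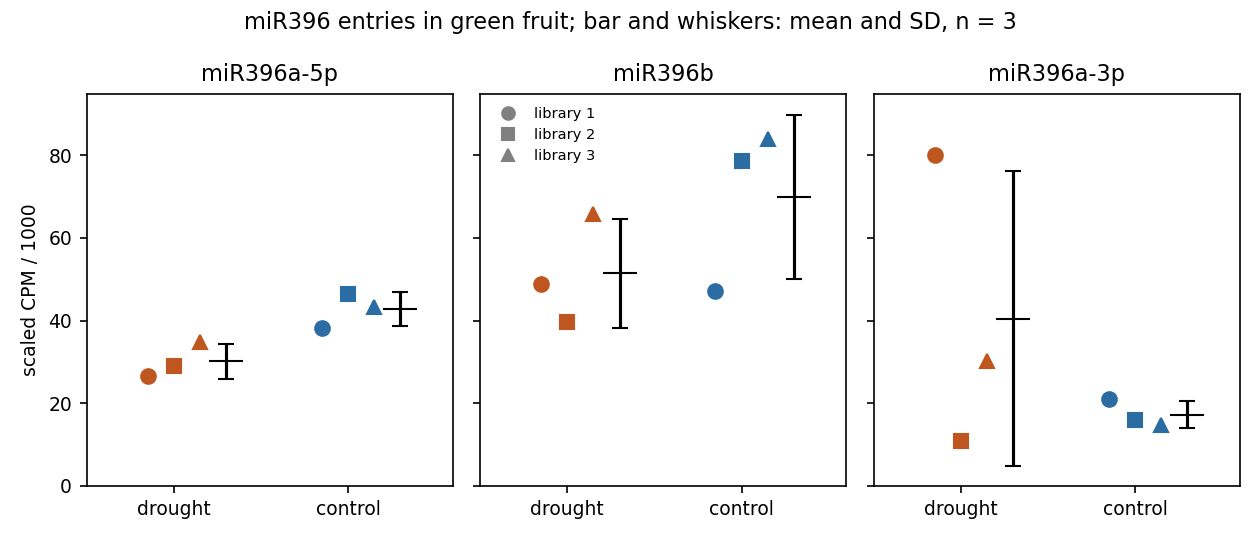
Scaled CPM divided by 1000 (y axis) of miR396a-5p, miR396b and miR396a-3p in drought (orange) and control (blue) libraries; the symbol gives the library number, and the bar with whiskers is the mean ± SD (n = 3). The 3p arm spans 10822 to 80179 in drought fruit and 14673 to 20914 in control fruit.

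The spread of miR396a-3p among drought libraries was wide for so abundant a miRNA. Its highest drought library held 7.41 times its lowest, while in control the ratio was 1.43. Among the 35 tested miRNAs with a mean of at least 1000 counts, a limit set after the values were seen, the median ratio was 1.73 in drought and 1.57 in control. miR396a-3p ranked 2nd of the 35 in drought, behind miR166c-5p at 11.2, and 23rd in control. miR396a-5p, cut from the same precursor, had ratios of 1.31 in drought and 1.21 in control and ranked 29th and 28th. miR396b had ratios of 1.66 and 1.78. Counting error was small beside this: a member's count carried a relative counting error of 0.406% to 1.21% in a library, while the coefficient of variation between libraries ran from 14.0% to 88.5% in drought and from 9.61% to 28.4% in control. The number of reads did not limit these values, and PCR copies are not marked, so counting errors and intervals cover counting only.

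The ratio of the arms of miR396a needs no library scaling, since both counts come from the same library. In drought library 1 the 3p arm outnumbered the 5p arm, with 30112 against 10009 counts, or 75.1% of both arms (95% Wilson interval 74.6% to 75.5%). In drought library 2 it held 6854 against 18373 counts, 27.2% (26.6% to 27.7%), and in drought library 3 it held 12952 against 14914 counts, 46.5% (45.9% to 47.1%). In control libraries 1 to 3 the 3p arm held 35.3% (34.8% to 35.8%), 25.6% (25.1% to 26.0%) and 25.3% (24.9% to 25.7%). So 2 of 3 drought libraries lay above all control libraries, the other lay within the range of the controls, so the groups overlapped, where 21.1% of the 19 precursors tested below did not overlap. The 3p arm led in drought library 1 alone.

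**Figure D3:**
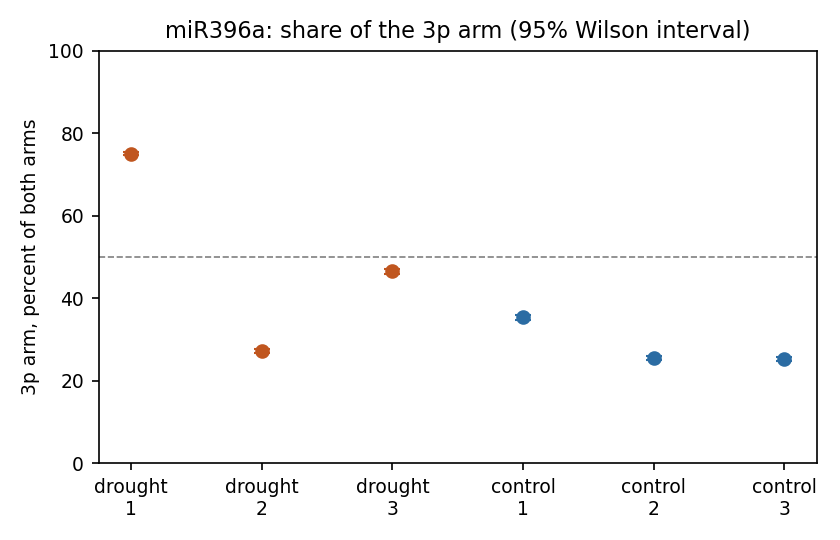
Share of the 3p arm in the counts of both miR396a arms (percent, y axis) in each drought (orange) and control (blue) library, with 95% Wilson intervals for counting error; the dashed line marks equal arms. Drought library 1 lies at 75.1% and drought library 3 at 46.5%, while drought library 2 at 27.2% lies among the control libraries (25.3% to 35.3%).

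Averaged over libraries the arm ratio of drought fruit did not pass a test against control. The 3p share was 49.6% ± 24.1 in drought and 28.7% ± 5.72 in control (SD, n = 3 each; two-sided exact permutation test, p = 0.2). On the log2 scale of 5p over 3p, the mean was 0.01 ± 1.51 in drought and 1.33 ± 0.39 in control (SD, n = 3 each). The difference was -1.31 ± 0.69 (SE; 95% interval -2.85 to 0.22; limma over 19 precursors, adjusted p = 0.407). Of these 19 precursors, which had both arms listed and tested, 10.5% passed. The difference was -0.51 without drought library 1 (limma adjusted p = 0.815), and -2.02 without drought library 2, where it passed (limma adjusted p = 0.0228). Without drought library 2, 3 of 19 precursors passed, against 2 of 19 with all libraries. Over the 10 alternatives tried the adjusted p of the miR396a arm ratio lay between 0.0228 and 0.815.

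Counting miR396b with miR396a-5p, which removes any trading of reads between these entries, gave a similar difference. It sets the 5p entries of both genes against the 3p entry of MIR396a alone, since the 3p strand of MIR396b has no entry. Whether reads of that strand were counted as miR396a-3p is not stated. Both 5p entries together had 0.941, 6.34 and 3.32 counts per count of the 3p arm in drought libraries 1 to 3, and 4.09, 7.84 and 8.69 in control libraries 1 to 3. The log2 difference was then -1.27 ± 0.68 (SE; limma adjusted p = 0.422). Set against miR396b instead, which comes from the other gene, miR396a-3p had 1.64, 0.273 and 0.460 counts per count of miR396b in drought, and 0.442, 0.203 and 0.175 in control. Drought library 1 again stood highest, drought library 3 lay just above control library 1, and drought library 2 lay within the control range (mean log2 difference 1.24, two-sided exact permutation p = 0.2; 0.50 without drought library 1).

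Set beside other precursors, miR396a had the most counts of the 19 and, in drought libraries 1 and 3, was at or near the low end. Relative to the mean of the control libraries, its log2 ratio of 5p over 3p moved by -2.92 in drought library 1, the lowest of 19, where the median precursor moved by 0.40. In drought library 3 it moved by -1.12, the second lowest of 19, where the median moved by 0.13. In drought library 2 it moved by 0.10, the 11th from the lowest, where the median moved by -0.06. A low place was not confined to drought fruit, since in control library 1 it stood at -0.45, the third lowest of 19, with the median at 0.15. The difference between the group means ranked the third of 19 in size. The largest rises in the ratio were those of miR171b, at 3.01 ± 0.66 (limma adjusted p = 0.0161), and miR482e, at 1.74 ± 0.49 (limma adjusted p = 0.0471). The largest falls were miR396a itself and miR156e, at -1.16 ± 0.47 (limma adjusted p = 0.194). miR171b rested on only 242 counts over all libraries, while miR396a had 211017. The number of precursors that passed moved between 0 and 3 when 1 library was left out, and was 0 without drought library 3, control library 1 or control library 3. With a pseudocount of 5 in place of 0.5 it was 0 as well, so the calls of miR171b and miR482e were lost.

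**Figure D4:**
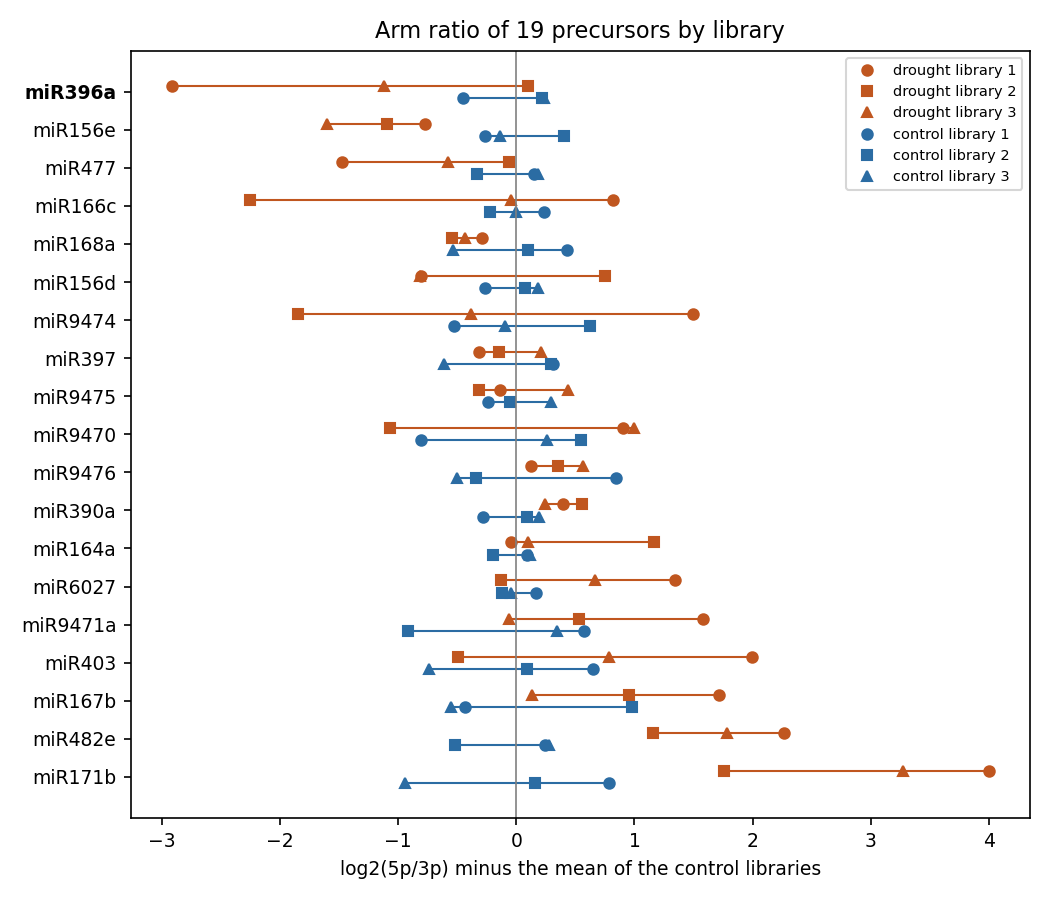
Log2 ratio of the 5p to the 3p arm, minus the mean of the control libraries (x axis), for 19 precursors (rows); points are single libraries (drought orange, control blue; symbol by library number) and lines join the range of each group. miR396a reaches -2.92 in drought library 1, stays at 0.10 in drought library 2, and its control libraries run from -0.45 to 0.24.

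Most precursors kept the same leading arm in every library. The leading arm was the same in all 6 libraries for 15 of the 19, and the other 4 were miR396a, miR167b, miR390a and miR477, of which the last 3 had between 250 and 1312 counts in all. A wider range of the ratio in drought than in control was common, in 15 of 19 precursors. In the range among drought libraries miR396a ranked the third at 3.01, after miR9474 at 3.34 and miR166c at 3.08, and in the range among control libraries it ranked 11th at 0.69.

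miR396a-3p also made up much of what the libraries held of minor arms. Taking for each precursor the arm with fewer counts over all libraries, these arms together held 10.6%, 3.01% and 5.45% of the counts in drought libraries 1 to 3 and 3.805%, 3.79% and 3.59% in control libraries 1 to 3. miR396a-3p was 64.1%, 48.5% and 55.2% of them in drought and 49.96%, 42.1% and 39.4% in control. Without it the minor arms held 3.81%, 1.55% and 2.44% in drought and 1.90%, 2.19% and 2.17% in control. Drought library 1 thus remained the highest and drought library 2 the lowest with miR396a left out.

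The entries fell into different patterns over the 6 libraries. Likeness was measured as the root mean square difference of log2 CPM after each miRNA's own mean was removed, where 0 is the same pattern. It describes these 6 libraries, which share their scaling factors, and was not tested. miR396a-5p and miR396b differed by 0.25, and each was the fourth most alike of 98 to the other. miR396a-5p and miR396a-3p, cut from the same precursor, differed by 1.12, and 3p ranked 77th of 98 for likeness to 5p. The median difference from other tested miRNAs was 0.67 for miR396a-5p, 0.72 for miR396b and 0.99 for miR396a-3p.

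The miRNAs most like miR396a-5p were miR6027-3p (0.17), miR5303 (0.22) and miR482c (0.24). Those most like miR396b were miR5303 (0.12), miR6027-3p (0.18) and miR9470-5p (0.20). The miRNAs most like miR396a-3p were all entries of the miR7981 family, miR7981c (0.26), miR7981f (0.31) and miR7981a (0.36). miR7981f, the most abundant of these 3, stood at 61620, 16165 and 38119 scaled CPM in drought libraries 1 to 3, against 27379, 16161 and 16460 in control libraries 1 to 3. It too was high in drought libraries 1 and 3 and near the control level in drought library 2, and it did not pass (log2 fold change 0.95 ± 0.48, edgeR adjusted p = 0.191). If reads can be traded among miR7981 entries, the 3 are not separate cases.

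**Figure D5:**
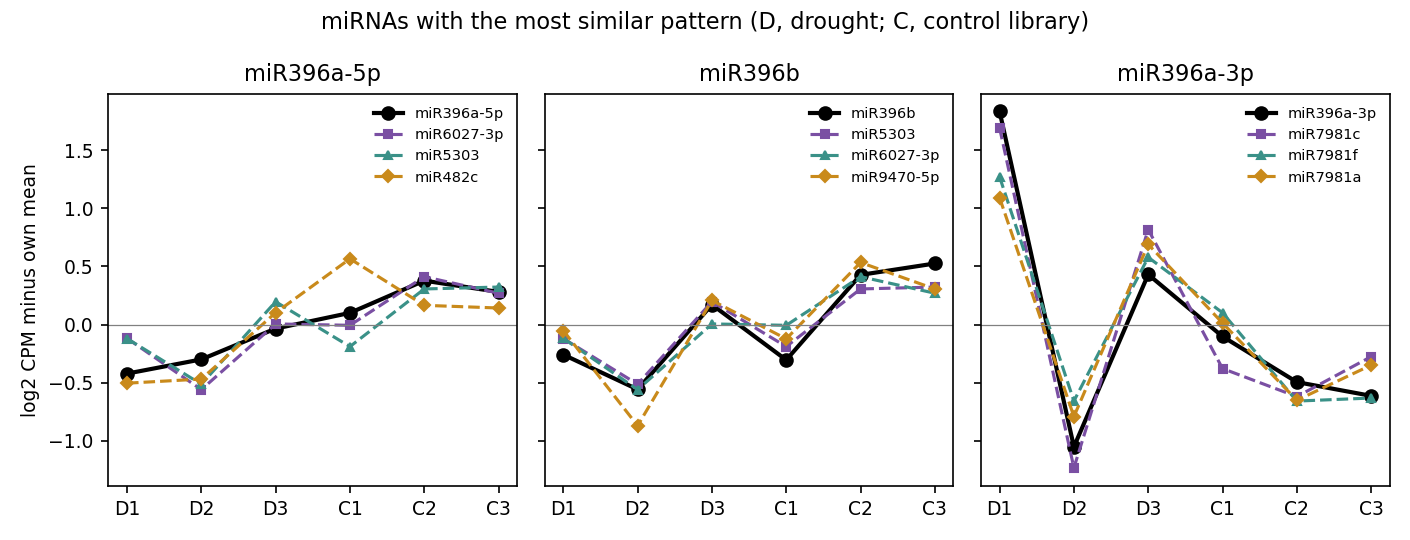
Log2 scaled CPM minus the miRNA's own mean over 6 libraries (y axis) for each miR396 entry (black) and the 3 miRNAs with the smallest root mean square difference from it; D1 to D3 are drought and C1 to C3 control libraries, and lines only join the points of 1 miRNA. miR396a-3p, miR7981c, miR7981f and miR7981a are highest in drought library 1, where both 5p entries lie below their own means, and in drought library 2 all of these lie below their means.

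Among other miRNA families whose targets act in organ growth and identity, more entries passed as falls than as rises. The list, chosen with earlier results of these data known, held miR156, miR159, miR160, miR164, miR166, miR167, miR171, miR172, miR319, miR390, miR393 and miR394. Of its 39 entries 32 were tested, and 10 fell and 2 rose (edgeR adjusted p under 0.05). Over all 99 tested miRNAs 11 fell and 9 rose, which are shares of 11.1% and 9.09%. The list thus holds 10 of those 11 falls, so the share of 11.1% is largely its own and no independent background. Both arms of miR156d, miR164a and miR167b are among the falls and are not separate cases. In the list the falls were 5 without control library 2, and the rises moved between 1 and 4 when 1 library was left out. The median log2 fold change was 0.07 in the list and 0.16 over all tested miRNAs, while the 3 miR396 entries had -0.50, -0.44 and 1.24. The falls were entries of miR156, miR159, miR164, miR167 and miR172, and the rises were miR394-5p and miR171b-5p. A fall of entries was not always one of the family. The falls in miR167 were the scarce arms of miR167b, while the sum of miR167 passed as a rise (log2 fold change 0.94, edgeR adjusted p = 0.0312). miR167a, its most abundant entry, did not pass when tested by entry (log2 fold change 1.08, edgeR adjusted p = 0.0787). Families and entries were fitted apart, with more degrees of freedom for most families, and their calls can differ. miR162 passed as a family (log2 fold change -1.28 ± 0.44, edgeR adjusted p = 0.0282). As an entry miR162 did not pass (log2 fold change -1.25 ± 0.54, edgeR adjusted p = 0.128). The sums of miR159 and miR172 did not pass (edgeR adjusted p = 0.327 and 0.306).

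Of the miR319 entries, which target the TCP factors upstream of miR396 genes in Arabidopsis, 0 of 3 tested passed in edgeR. Over all 99 tested miRNAs 20.2% passed, so 0 of 3 does not set these entries apart. miR319a averaged 725 ± 265 CPM in drought and 1540 ± 510 CPM in control, with a log2 fold change at -1.09 ± 0.42 (edgeR adjusted p = 0.0928). miR319b was at 0.38 ± 0.37 and miR319c-3p at 0.40 ± 0.39 on the log2 scale (edgeR adjusted p = 0.455 and 0.464). miR319c-5p had between 0 and 2 counts a library and miR319d had 0 in all 6, and neither was tested. MIR171d is the third gene before MIR396a in the RefSeq gene table, and it was looked up for that reason after the values were seen. miR171d averaged 56.5 ± 7.80 CPM in drought and 28.9 ± 6.34 CPM in control (SD, n = 3 each), and its log2 fold change, 0.97 ± 0.39, did not pass (edgeR adjusted p = 0.106).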

How the data were processed

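Per the labels' protocols, total RNA of green fruit was freed of polysaccharides and polyphenols, treated with DNase and made into small RNA libraries from 240 ng with the NEBNext Multiplex Small RNA kit. The authors deposited 1 table of 137 miRNAs with whole-number counts per library. The deposited CPM columns are a signal per 1e+06 of an effective library size, since count over CPM is 1 constant per library, 0.880 to 1.22 times its total. The deposited fold change column is a score, negative for falls, and the deposited log2 fold changes and p-values are the authors' own. No label or header names the aligner, the miRNA database release, the build or how reads that match several entries were counted.

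The test of counts was that of edgeR 4.0.16 under R 4.3.3 (robust quasi-likelihood, two-sided, group as the only term) on the whole table after filterByExpr (minimum count 10, minimum total 15), which left 99 miRNAs with 99.98% of counts, and TMM scaling. Benjamini-Hochberg adjustment ran over all tested miRNAs, and the threshold was an adjusted p of 0.05. A standard error is the log2 fold change divided by the square root of F. Families were summed by number and tested with the same steps. For miR396 and most other families that fit used more degrees of freedom than the fit of entries. Intervals there span fewer standard errors, and p-values are smaller for the same F. Shares of families and of entries that passed are therefore not comparable. Arm ratios, log2((5p + 0.5)/(3p + 0.5)), were tested with limma 3.58.1 over precursors with both arms tested. DESeq2 1.42.0 and the other alternatives are in the closing section. The edgeR fit of entries and the limma fit of arm ratios were also run on simulated counts, in which the arms were drawn independently. The permutation test and the Wilson interval were checked on fixed inputs, and the other steps were not checked in this way. In all, 13 shares and ratios of members were compared by exact permutation, and the lowest p was 0.2.

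Members and lists were chosen with earlier results of these data known. The rule for naming took all members, the 3 most alike miRNAs of each (CPM with prior count 2), the 2 largest rises and falls of the arm ratio, and the miR319 entries. The values of miR7981f, miR171d, miR166c and miR9474, the precursors whose leading arm changed, and the families that passed in the growth list were named after their values were seen. The CPM limit for a count of 0 (3 counts) was 4.00 to 6.96 by library.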

Additional observations from a re-analysis of the deposited data

How the results depend on the processing

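Among the alternatives were other scalings, no filter, DESeq2, no robust fit, a replicate block and each library left out. The fold changes of the entries and of the family sum, and the arm ratio, kept their direction in all of them. They kept their side of the threshold in most. The differences in the family's share and in the ratio of the 5p entries did not keep their direction. The log2 fold change of miR396a-5p ran from -0.63 to -0.26 and that of miR396b from -0.66 to -0.21, and neither passed in any of 13. Leaving out 1 library moved miR396a-3p between 0.30 and 1.55, the arm ratio between -2.02 and -0.51, the family sum between -0.27 and -0.05, and the number of miRNAs past the threshold between 9 and 41. miR396a-3p and the arm ratio passed only without drought library 2, and for both the cause was not tested. With edgeR diffSpliceDGE the arm ratio was -1.64 (adjusted p = 0.117). The family's share, -0.19 percentage points in drought minus control, was 2.34 after the 5 most abundant entries, miR396b among them, were left out of both the family and the total; the cause was not tested. Over all tested entries the median log2 fold change was 0.16 with TMM, 0.27 with library totals and 0.40 with upper-quartile scaling, where 16 rose and 11 fell and 16 rose and 10 fell, against 9 and 11.

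No pairing by replicate number was visible: the deviations of same-numbered libraries correlated at 0.10, -0.24 and 0.01. Among drought libraries only drought library 1 correlated best with the control library of its own number. With 3 libraries a group, these correlations are too few to decide on a pairing. With the replicate block 12 miRNAs passed in place of 20, all among the 20, and miR396a-3p stood at 0.82 (adjusted p = 0.315) and the arm ratio at -1.31 (adjusted p = 0.244). With 3 libraries a group the smallest permutation p is 0.1, and depth did not limit any miR396 value.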
